A study of Mus musculus with 12 samples.

Results

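The baseline transcriptome of mouse pancreatic islets was described in the 6 control libraries among the 12 libraries of a study of mice lacking the miR-17-92 and miR-106b microRNA clusters. The members were chosen by label: the libraries whose titles carry the control suffix, here control replicates 1 to 6. All 23339 rows with a gene name were profiled. All 6 libraries came from C57BL/6 mice and carried the control genotype for miR-17-92/106. Which alleles the controls carried, whether they had a Cre driver, and the age and sex of the mice are not given in the sources used here. The labels do not tie libraries to single mice. Every SD and p-value below therefore measures the spread between these libraries, which may be technical. Total RNA was extracted from isolated islets, so each value is an average over all cells of a preparation.

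Islets of Langerhans are groups of endocrine cells of several types. Beta cells make insulin, which lowers blood glucose, and alpha cells make glucagon, which raises it. Delta cells make somatostatin, which restrains both, and PP cells make pancreatic polypeptide. Mice have a pair of insulin genes, the ancestral Ins2 and its retrotransposed copy Ins1. Islets are embedded in exocrine tissue, whose acinar cells make digestive enzymes, and preparations can carry some of it along.

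Short windows of the promoters of the hormone genes that led the profile are shown because 2 classical control elements of these genes can be read in them. The motif CATCTG is a form of the E box, which is bound in insulin promoters by Neurod1 with its ubiquitous partners. The motif TGACGTCA is the cyclic AMP response element, first defined in the rat somatostatin promoter. Sequences are from RefSeq on GRCm38.p6, are written 5′ to 3′ on the strand of the gene, and have the motif, as read on that strand, in capitals.
Ins1, chr19:52264201-52264230, plus strand: ggttcatcaggcCATCTGgtcccttattaa
Iapp, chr6:142298302-142298331, plus strand: gcccacctgctcCATCTGccaatgaaaccc
Gcg, chr2:62483775-62483804, minus strand: cagcgtaaaaagCAGATGagcaaagtgagt
Gcg, chr2:62483719-62483748, minus strand: ccccattatttaCAGATGagaaatttatat
Sst, chr16:23890874-23890903, minus strand: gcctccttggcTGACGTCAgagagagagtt

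The window searched ran from 250 bases before to 50 bases after each gene's start, on both strands, and the motifs do not overlap each other. Of 32851 such promoters, 17.2% held CATCTG and 1.79% held TGACGTCA. Ins1 had 2 matches to CATCTG, of which the upstream one is shown, and Iapp had 1. The alpha cell gene Gcg had 2 matches, both read as the reverse complement CAGATG. Neither motif was found in the windows of Ppy and Pyy. The sequences used held no promoter of Ins2, so Ins2 was not searched and no window is shown for it. A match describes these letters and was not tested as a binding site.

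Insulin dominated every library. Ins1 and Ins2 together took 57.9, 60.2, 62.7, 64, 57.5 and 60.01% of all counts in control replicates 1 to 6, a mean of 60.4% ± 2.58 (SD, n = 6). Ins2 alone took 44.8% ± 2.48 of all counts and Ins1 took 15.6% ± 0.827. The summed share was highest in replicate 4 and lowest in replicate 5. Totals per library ran from 2705479 to 5099566 counts, and insulin left 1009760 to 1834983 counts for all other genes. Because so few counts remain, levels of the other genes are given as CPM outside insulin, which is counts scaled to a total of 1000000 over all genes except Ins1 and Ins2. Where gene length is taken into account, levels are given as TPM outside insulin. This divides each count by the length of the gene's exons first and scales all genes except Ins1 and Ins2 to a sum of 1000000. Comparisons of genes in CPM, such as ranks by reads, leading genes, level thresholds and list medians, are not corrected for length. In bulk samples, fewer cells of a type and less RNA per cell cannot be told apart.

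Per kilobase of exon, Ins2 stood above Ins1 in all 6 libraries. The log2 ratio of Ins2 over Ins1 was 1.34, 1.15, 1.32, 1.27, 1.04 and 1.18 in replicates 1 to 6, a mean of 1.22 ± 0.12 (SD, n = 6), or 2.32-fold. Ins2 was higher in 6 of 6 libraries (two-sided exact sign-flip permutation test, adjusted p = 0.034 over 14 gene pairs). The 2 genes are close copies. Of all 30-base stretches of Ins1 transcripts, 4.84% also occur in Ins2 transcripts, against 0.691% of 50-base and 0% of 100-base stretches. Read length and the treatment of multiply mapped reads are not given in the sources used here, so reads from the shared stretches may be split either way.

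**Figure D1:**
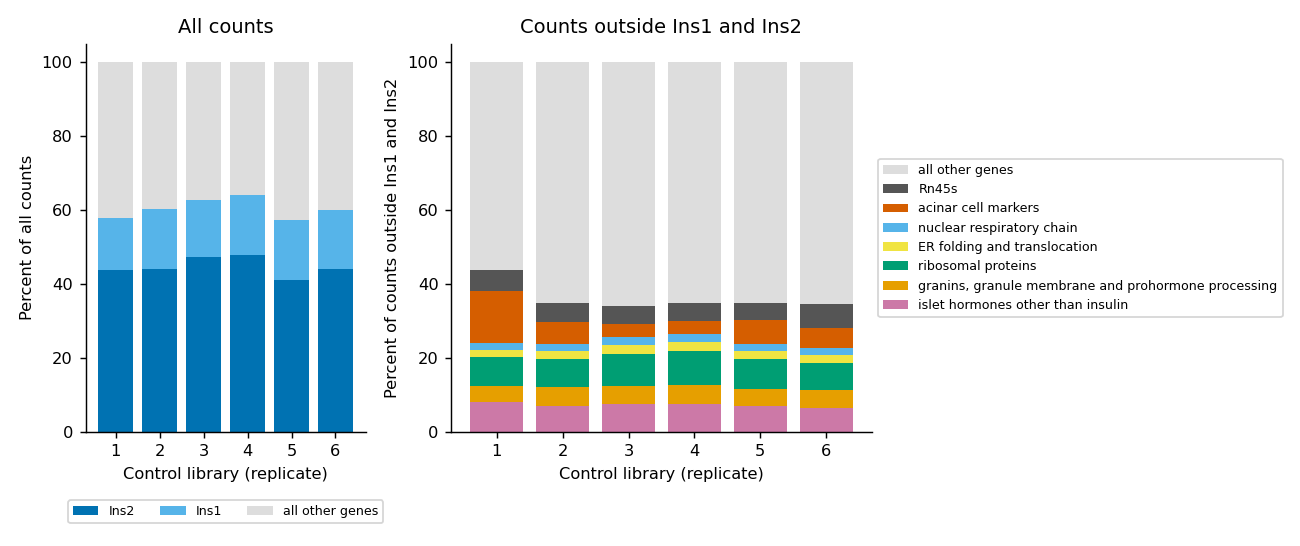
Left, the percent of all counts on Ins2, Ins1 and all other genes in each control library. Right, the percent of the counts outside Ins1 and Ins2 held by gene classes in the same libraries. The insulin share lies between 57.5% and 64% in the 6 libraries, and the acinar class takes 14.0% of the remaining counts in replicate 1 against 3.39% to 6.43% in the others.

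Replicate 1 stood apart from the other libraries. Acinar cell markers took 14.0% of its counts outside insulin and 3.39% to 6.43% in replicates 2 to 6. The first principal component of log2 levels held 42.2% of the variance and set replicate 1 at a score of 20.6, while the other 5 lay between −6.88 and −3.06. It was computed on CPM outside insulin only, so the score includes any general shift of replicate 1 on that scale. Pearson's r of log2 levels across genes, which are not independent replicates, was 0.960 to 0.970 for the 5 pairs with replicate 1 and 0.970 to 0.982 for the other 10 pairs. Replicate 1 had the lowest CPM outside insulin for 53.0% of the 4860 genes with a mean of at least 50 counts, here called well counted. Its median log2 difference from the others was −0.22 on this scale and −0.01 after TMM scaling, which takes most genes as unchanged between libraries. Replicate 1 was the lowest for 22.6% of the well counted genes after TMM scaling. Values that rest on replicate 1 are therefore also given without it.

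Iapp and the hormones of the other endocrine cells were near the head of the profile after insulin. Iapp, islet amyloid polypeptide, is stored and released with insulin. Its level was 30709, 31418, 35174, 39133, 28939.6 and 32624 CPM outside insulin in replicates 1 to 6, the highest of any gene outside insulin per kilobase at 78263 ± 10234 TPM outside insulin (SD, n = 6). Gcg, glucagon, was at 28116, 14649, 21003, 17805, 21009.5 and 13468 CPM, highest in replicate 1 and lowest in replicate 6. Its CV, the SD divided by the mean, was 27.5% over 6 libraries and 19.9% without replicate 1. Sst, somatostatin, was at 7388, 5949, 7911, 8398, 8187 and 6322 CPM and had a CV of 13.8%. All 5 markers of endocrine identity, Ins1, Ins2, Gcg, Sst and Ppy, were among the 25 genes with the most reads, against which the tissue label was checked.

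The PP cell hormones behaved unequally between libraries. Ppy, pancreatic polypeptide, was at 5693, 9123, 3099.8, 2833, 2949 and 4969.9 CPM outside insulin, with a CV of 51% over 6 libraries and 58.3% without replicate 1. Replicate 2 was the highest, at 3.22 times replicate 4, the lowest, while replicates 3, 4 and 5 lay close together. Pyy, peptide YY, which several islet cell types make in mice, was at 7277, 9129, 6141, 6534, 6857 and 6782 CPM with a CV of 14.8%, also highest in replicate 2. In order of level per kilobase, Iapp was followed by Gcg at 29581 ± 6717, Pyy at 26010.1 ± 3896, Sst at 23533 ± 3336 and Ppy at 21960.4 ± 11178 TPM outside insulin (SD, n = 6). Iapp stood clear of the rest, and neighbours in the order from Gcg to Ppy differed by less than the SD of the more variable one. Ins2 reached 2004042 ± 282653 and Ins1 861504 ± 110769 on the same scale.

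Markers of each endocrine cell type other than its hormones were also counted. At least 100 CPM outside insulin was reached by 1 of 11 alpha cell, 1 of 7 delta cell and 0 of 3 PP cell markers that are not hormone genes, and by 9 of 10 such beta cell markers. Of all 23337 genes outside insulin, 1738 (7.45%) had that level. Ucn3, urocortin 3, which mature beta cells release onto delta cells, was at 511, 568.3, 693, 717, 595 and 601 CPM outside insulin, or 962 ± 149 TPM outside insulin. Npy, neuropeptide Y, was at 8.53 ± 4.29 CPM and Ghrl, ghrelin, the product of the rare epsilon cells, at 4.72 ± 1.42 CPM (SD, n = 6). In the library with the fewest counts outside insulin, 3 counts are worth 2.97 CPM, so Ghrl lay near the limit of what a library could show.

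**Figure D2:**
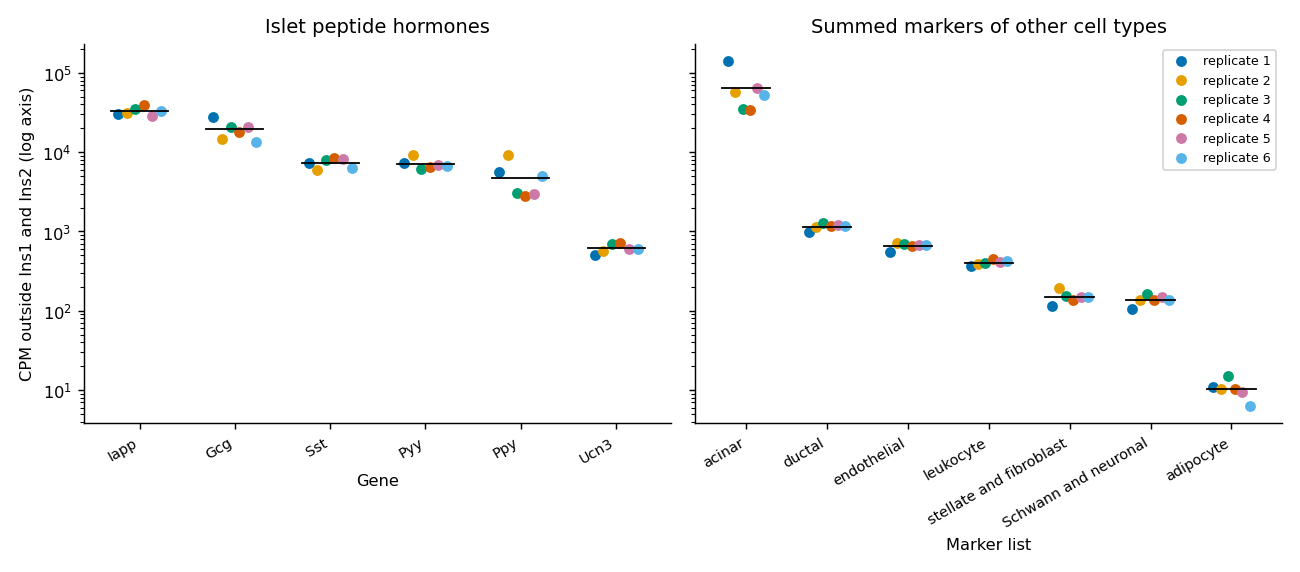
CPM outside insulin on a log axis for 6 islet peptide hormone genes (left) and for the summed markers of 7 other cell types (right). Each point is a control library and each bar the mean of 6. Gcg and Ppy spread most among the hormones, and the acinar sum of replicate 1, 140224 CPM, lies above the other libraries, which reach 64332 CPM at most.

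Few genes carried much of the signal. Outside insulin, 397 genes held 50% of the counts, the 10 highest held 17.1%, the 100 highest 33.8% and the 1000 highest 63.0%. In replicate 1 only 232 genes held 50% of the counts, against 413 to 445 in the other 5. Of the 23337 genes outside insulin, 105 reached 1000 CPM outside insulin, 1633 lay between 100 and 1000, 7067 between 10 and 100, 3881 between 1 and 10, and 2834 were counted below 1 CPM. The remaining 7817 were listed at 0 in every library. Over all counts, 11361 genes reached a mean of 1 CPM.

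**Figure D3:**
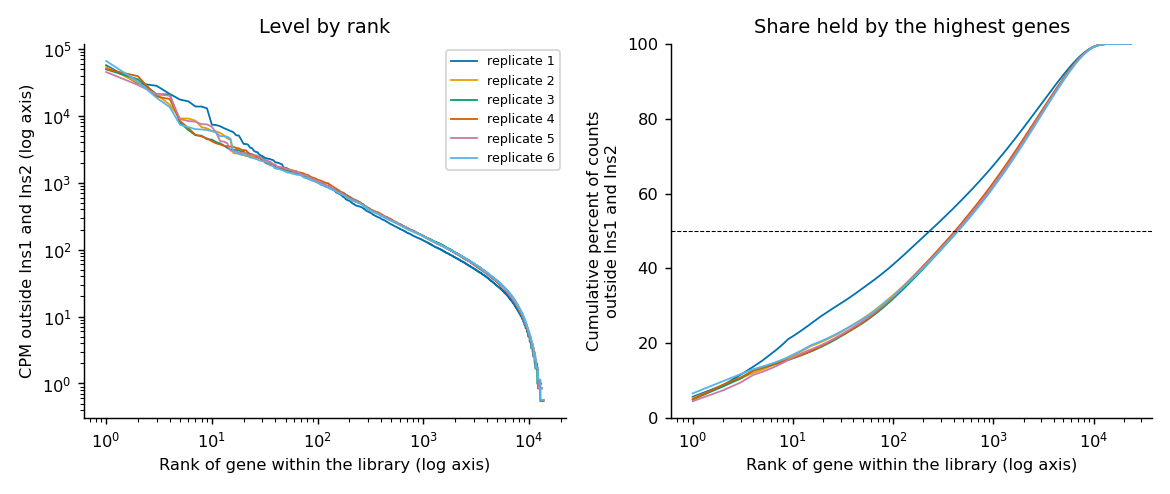
Left, CPM outside insulin of every counted gene against its rank within each control library, both on log axes. Right, the cumulative percent of counts outside insulin held by the highest genes, with 50% dashed. Replicates 2 to 6 overlie one another and cross 50% at 413 to 445 genes, and replicate 1 crosses it at 232.

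By reads, the head of the list mixed endocrine, exocrine and housekeeping transcripts. Rn45s, the precursor of ribosomal RNA, took the most reads outside insulin, with 57009, 53795, 49538, 50116, 45202 and 66044 CPM. It was followed by Iapp, Chga and Gcg, then by the acinar enzymes Ctrb1 (chymotrypsinogen B, 9345 ± 6072 CPM, SD, n = 6) and Cela1 (elastase 1, 7747 ± 4548 CPM). The place of these acinar enzymes rested on replicate 1, with 21269.6 CPM of Ctrb1 and 16468 CPM of Cela1. The other libraries had 4931 to 8921 CPM of Ctrb1 and 4172 to 8367 CPM of Cela1. Without replicate 1 the mean of each lay below those of Sst and Pyy. The nuclear RNA Malat1 was at 4571 ± 911 CPM and the translation factor Eef1a1 at 2973 ± 267 CPM. The set was stable: 85 genes were among the 100 highest in every library, out of 117 that were so in any. Among the 85 were 28 ribosomal protein genes and 10 acinar genes. Per kilobase, Snord104, a small nucleolar RNA of 70 bases, ranked high at 16586 TPM outside insulin, but reads of its host transcript may be counted on so short a gene.

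Granins and their partners, the cargo and coat of the secretory granule, followed the hormones. The list of granins and granule membrane genes summed to 31598 to 36880.1 CPM outside insulin, and 18 of its 22 members had at least 100 CPM. Chga, chromogranin A, which condenses granule contents, was at 17485, 20914, 20963, 19457, 20005 and 18594 CPM, with a CV of 6.95%. Chgb, chromogranin B, was at 717, 853, 833, 874, 881 and 1012 CPM. The log2 ratio of Chgb over Chga per kilobase was -4.50 ± 0.17 (SD, n = 6), so Chga was 22.6-fold higher, in 6 of 6 libraries (exact sign-flip permutation test, adjusted p = 0.034). Scg2, secretogranin II, was at 3929 ± 541, Resp18 at 4328 ± 1048 and Scg3 at 1257 ± 149 TPM outside insulin. Resp18, a luminal granule protein, was uneven: replicates 1 to 3 had 2273, 2382 and 2473 CPM, and replicates 4 to 6 had 1576, 1669.7 and 1295 CPM. Slc30a8, the zinc transporter of insulin granules, was at 777, 667, 676, 645, 687 and 739 CPM and Slc18a2, the vesicular monoamine transporter, was listed at 0.

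Enzymes that mature prohormones were well counted. Cpe, carboxypeptidase E, which trims basic residues, was at 4394, 4576, 5045, 5205, 4191 and 4559 CPM outside insulin, or 4127 ± 441 TPM outside insulin. Scg5, the 7B2 chaperone of convertase 2, was at 4084 ± 491 TPM and Pcsk1n, an inhibitor of convertase 1, at 1596 ± 249 TPM (SD, n = 6). Pcsk2, prohormone convertase 2, was at 1432, 1548, 1522, 1655, 1719 and 1561 CPM and Pcsk1, prohormone convertase 1, at 189, 211, 248, 267, 197 and 195 CPM. Per kilobase the log2 ratio of Pcsk2 over Pcsk1 was 2.36 ± 0.20, with Pcsk2 higher in 6 of 6 libraries (exact sign-flip permutation test, adjusted p = 0.034). Pam, which amidates peptides such as amylin, was at 893 ± 43.3 CPM with a CV of 4.85%. Of 13 listed genes all had at least 1 CPM, 9 had at least 100, and the median CV beyond counting error of those well counted was 10.1%, against 9.06% for all well counted genes.

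Transcription factors of beta cells covered a wide range. Mafa, which drives insulin transcription in mature beta cells, led at 1109, 1440.0, 1239, 1431, 1718 and 1475 CPM outside insulin, lowest in replicate 1 and highest in replicate 5. On this scale replicate 1 was the lowest for 53.0% of all well counted genes. Per kilobase it was at 1186 ± 213 TPM outside insulin, followed by Nkx6-1 at 622 ± 80.3, Pdx1 at 215 ± 21.8, the glucose-responsive factor Mlxipl at 187 ± 30.03 and Neurod1, one of the E box proteins named above, at 181 ± 29 (SD, n = 6). The ranges of mean ± SD of Pdx1, Mlxipl and Neurod1 overlapped. Isl1, a factor shared by all islet endocrine cells, was at 253, 239, 227, 215, 250.2 and 246 CPM, with a CV of 6.26%. Of 29 listed factors, 10 had at least 100 CPM, where 7.45% of all genes did. Pax4 was listed at 0, and Foxa1, Glis3 and Mnx1 were under 1 CPM.

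Genes of glucose entry, glucose metabolism and the ATP-sensitive potassium channel were led by G6pc2, the islet glucose-6-phosphatase, at 2517, 2481, 2611, 3070.3, 1969.5 and 2617 CPM outside insulin, or 2974 ± 445 TPM. Slc2a2, the low-affinity glucose transporter of rodent beta cells, was at 369, 390.0, 366, 401, 345 and 367 CPM with a CV of 5.31%, and Slc2a1, the widespread high-affinity transporter, had 14, 14, 13, 25, 7 and 13 counts per library. Their log2 ratio per kilobase was 4.53 ± 0.44, or 23-fold. Slc2a2 was higher in 6 of 6 libraries (exact sign-flip permutation test, adjusted p = 0.034). Abcc8, the sulfonylurea receptor, was at 197 ± 31.9 and Kcnj11, the pore subunit with which it forms the channel, at 71.7 ± 12.2 TPM outside insulin, a log2 ratio of 1.46 ± 0.14 (adjusted p = 0.034, same test).

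**Figure D4:**
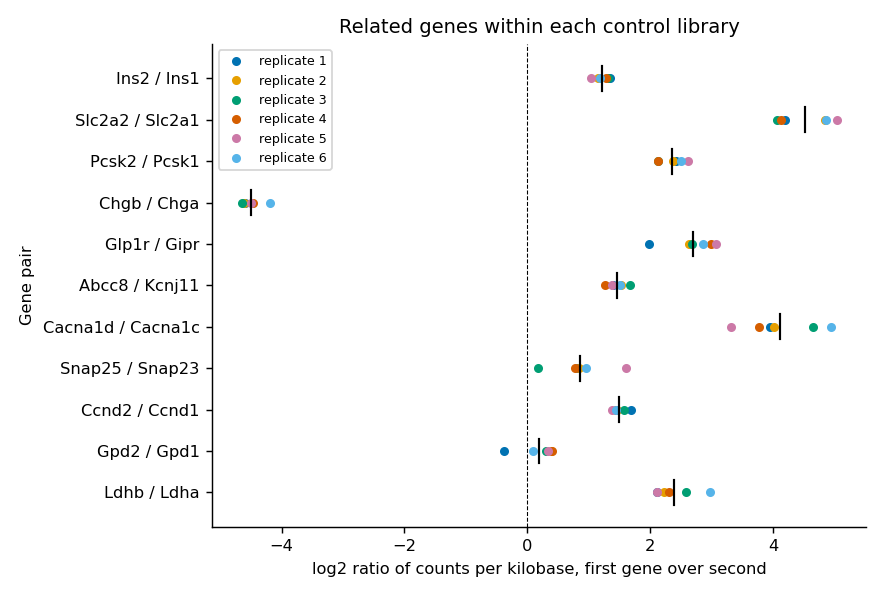
The log2 ratio of counts per kilobase of exon, first gene over second, for 11 pairs of related genes with counts for both. Each point is a control library and each bar the mean of 6. All 6 libraries lie on 1 side of 0 for 10 pairs, and for Gpd2 over Gpd1, with a mean of 0.19, replicate 1 alone lies below 0.

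The remaining pairs followed with the same test. Cacna1d, an L-type calcium channel subunit, exceeded Cacna1c with a log2 ratio of 4.11 ± 0.60 per kilobase, though Cacna1c rested on 7, 16, 6, 15, 16 and 10 counts. Snap25, the neuronal SNAP protein of exocytosis, exceeded the ubiquitous Snap23 by 0.86 ± 0.45. Glp1r, the receptor of the incretin GLP-1, exceeded Gipr, that of the incretin GIP, by 2.70 ± 0.39, and the lowest of these values was replicate 1. Ccnd2, cyclin D2, exceeded Ccnd1, cyclin D1, by 1.501 ± 0.115. Ldhb exceeded Ldha, the lactate dehydrogenase subunit that beta cells keep low, by 2.39 ± 0.33, on 21, 34, 35, 29, 17 and 46 counts of Ldhb and 10, 15, 12, 12, 8 and 12 counts of Ldha. All 5 had an adjusted p of 0.034 in the exact sign-flip permutation test. Gpd2, the mitochondrial glycerol phosphate dehydrogenase, and Gpd1, its cytosolic partner, were not separated, with a log2 ratio of 0.19 ± 0.30 (exact sign-flip permutation test, adjusted p = 0.156). Gpd2 was higher in 5 of 6 libraries, the exception being replicate 1, without which the mean was 0.30. The ratios ran from -0.38 to 0.41. Cdk4 had 100, 192, 117, 212, 143 and 183 counts while Cdk6, the other kinase partner of D cyclins, was listed at 0, so no ratio is given. With 6 libraries the test cannot give a p below 0.03125, and 10 of the 11 pairs described here with counts for both genes reached it. A wrong exon length would shift a ratio equally in all 6 libraries, which the test cannot detect. The p-values therefore cover only how steady each order was between libraries, for the lengths used.

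Receptors of hormones and nutrients covered a wide range. Of 39 listed G protein coupled receptors, 5 had at least 100 CPM outside insulin, where 7.45% of all genes did. Their median was 10.7 CPM, against 2.11 for all genes, of which 7817 were listed at 0, and 22.8 for the 12686 genes with a mean of at least 1 CPM. Glp1r led at 375, 482, 494, 559, 590.2 and 586 CPM, with a CV of 16% over 6 libraries and 9.45% without replicate 1. Sstr3, a somatostatin receptor, was at 161, 320.0, 292, 293, 313 and 250.3 CPM, the adhesion receptor Gpr56 at 189 to 259 CPM, and Adra2a, through which adrenaline restrains insulin release, at 144 to 186 CPM. Ffar2, a receptor of short-chain fatty acids, was at 95.1 to 177 CPM. Per kilobase, Glp1r had 205 ± 40.2, Sstr3 146 ± 35.4 and Ffar2 102 ± 27.5 TPM outside insulin, and the ranges of mean ± SD of Glp1r and Sstr3 overlapped. Gcgr, the glucagon receptor, was at 49 ± 10.4 TPM. Sstr5 was listed at 0, and Ffar1, the long-chain fatty acid receptor of beta cells, had 1 count in all 6 libraries together.

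Of 31 exocytosis genes, 12 had at least 100 CPM outside insulin, where 7.45% of all genes did. The median of the list was 76.5 CPM, above the 22.8 of the 12686 genes with a mean of at least 1 CPM. Syt13 was at 516, 633, 581, 641, 652 and 653 CPM, Syt7, a calcium sensor of granule release, at 375, 522, 494, 460.5, 542 and 540.3 CPM, and the complexin Cplx2 at 340.0 to 453 CPM. Rab3a, a GTPase of docked granules, was at 152 to 219.5 CPM and Vamp2, a SNARE of the granule membrane, at 147 to 222 CPM. Snap25 was at 72.5 to 88 CPM.

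Protein folding in the endoplasmic reticulum was broadly represented. All 40 listed genes had at least 1 CPM and 35 had at least 100, with a median of 454 CPM outside insulin. Hspa5, the chaperone BiP, was at 2204, 2392, 2749, 2576, 2554 and 2359 CPM and P4hb, a disulfide isomerase, at 1384, 1585, 1597, 1743, 1549 and 1536 CPM. Ero1lb, the oxidase of islet cells that drives disulfide formation, was at 1329.9, 1416, 1597, 1608, 1431 and 1416 CPM. Pdia3, another disulfide isomerase, was at 1557, 1685, 2703, 1823, 1707 and 1549 CPM, and replicate 3 stood above the other 5. Per kilobase Pdia3, Hspa5 and P4hb had 1354 ± 349, 1351 ± 151 and 1265 ± 136 TPM outside insulin and did not differ beyond their SDs. Atf4, a factor of the stress response that is also made at rest, was at 869.6 ± 87.8 CPM.

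Translation and respiration genes formed broad blocks. The 85 ribosomal protein genes held 7.34% to 9.22% of the counts outside insulin, and 77 of them had at least 100 CPM. Their median CV was 8.99%. Rplp1, a stalk protein, led at 13020.4 ± 2144 TPM outside insulin. Nuclear genes of the respiratory chain held 1.75% to 2.20%, with 63 of 84 at or above 100 CPM and a median CV of 10.4%. Cox8a led them at 2287 ± 321 TPM. No gene of the mitochondrial genome was found by name among the rows, so these genes were not analysed here.

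Genes known from diabetes spanned the whole range. Among the targets of autoantibodies or T cells in type 1 diabetes, 12 of 17 had at least 100 CPM outside insulin, which includes both insulins, Iapp, Chga, G6pc2 and Slc30a8. The tyrosine phosphatase family members Ptprn and Ptprn2 were at 158 ± 24.6 and 97.1 ± 11.7 TPM outside insulin. Gad1 was at 60.6, 78.6, 66.4, 70.8, 67.5 and 72.8 CPM, and Gad2, which encodes the main glutamate decarboxylase antigen in people, was at 5.05, 9.11, 14.9, 4.90, 12 and 5.12 CPM. At least 100 CPM was reached by 7.45% of all genes outside insulin and by 10 of 34 genes mutated in monogenic diabetes. Among these, Ier3ip1 was at 296 ± 22.3 CPM and Wfs1 at 137 ± 24.9 CPM. Cel, an acinar lipase, was at 2235, 1222, 736, 692, 1289.7 and 1032 CPM, highest in replicate 1.

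Genes known to be kept low in beta cells were read against the whole table. Of 36 such genes, 2 had at least 100 CPM outside insulin, where 7.45% of all genes did. Their median was 5.02 CPM, against 2.11 for all genes outside insulin, of which 7817 were listed at 0. For the 12686 genes with a mean of at least 1 CPM the median was 22.8 CPM. The pair above 100 CPM was Selm, a selenoprotein, at 500.3 ± 53.2 CPM and Cox5b, a respiratory subunit, at 206 ± 23.5 CPM. Ldha was at 8.42, 8.54, 11.9, 6.54, 6.83 and 6.83 CPM, Cat, catalase, at 7.77 ± 1.96 CPM and Oat at 6.49 ± 3.69 CPM (SD, n = 6).

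Activity, proliferation and reference genes gave further levels. Hspa8, the constitutive heat shock protein, was at 1514 ± 174 CPM outside insulin, whereas the immediate early genes Jun and Junb were at 31.2 ± 7.02 and 15.2 ± 4.83 CPM. Cyclin D2, which mouse beta cells need to proliferate after birth, was at 1657, 2277, 2095, 2187, 2128 and 2033 CPM, lowest in replicate 1. Of 31 cell cycle genes 4 had at least 100 CPM, where 7.45% of all genes did. The median of the 31 was 5.03 CPM, against 2.11 for all genes and 22.8 for the 12686 genes with a mean of at least 1 CPM. The replication genes Pcna and Mcm7 were at 13.5 ± 3.62 and 14.9 ± 5.22 CPM. Of the genes often used as references, Actb was at 1928 ± 183 CPM with a CV of 9.51%, Gapdh at 249 ± 22.6 CPM with 9.07% (4.41% without replicate 1) and Hprt at 141 ± 10.1 CPM with 7.14% (SD, n = 6). With TMM factors the CVs were 7.31% for Actb, 5.68% for Gapdh and 11.2% for Hprt, so their order depended on the scaling.

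Of 33 imprinted genes 8 had at least 100 CPM outside insulin, with a median of 20.4 CPM, and of 22 noncoding RNAs 9 did, with a median of 37.4 CPM. Of all genes outside insulin, 7.45% had that level. Meg3, from the imprinted Dlk1-Meg3 locus, was at 1659.8, 2437, 2320.3, 1809.8, 2579 and 2392 CPM outside insulin and its neighbour Rian at 1899, 2058, 2439, 1694, 2291 and 2000.4 CPM. Both are long, and per kilobase they reached 282 ± 57.2 and 262 ± 40.4 TPM outside insulin. Malat1 reached 1519 ± 359.6 and Neat1, the scaffold of paraspeckles, 72 ± 11.1 TPM. Gnas, which encodes the stimulatory G protein subunit of the cyclic AMP pathway, was at 942, 1045, 1116, 1143, 1084 and 1170.0 CPM. Snrpn was listed at 0.

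Summed markers of other cell types lay below Gcg, Sst, Pyy and Ppy alone, and far below the summed acinar markers. Single markers did not all follow this order. The median marker was at 28.6 CPM outside insulin for ductal and 33.6 for endothelial cells. It was at 15.2 for alpha, 13.5 for delta, 48.4 for PP and 614 for beta cells, and at 8.97 or less for the other lists in this paragraph. Summed ductal markers lay at 981 to 1263 CPM outside insulin, with Epcam at 206 ± 22.2 CPM, though Krt8, Krt18 and Epcam are also made by endocrine epithelium. The ductal factor Sox9 was at 3.13 ± 1.48 CPM and Krt19 at 6.87 ± 2.05 CPM. Summed endothelial markers lay at 548 to 708 CPM, with Plvap, of the fenestrated islet capillaries, at 158, 200.4, 205, 208, 198 and 184 CPM. Summed leukocyte markers lay at 367 to 445 CPM, with the macrophage complement gene C1qa at 117 ± 17.6 CPM and Cd74 at 68.7 ± 7.76 CPM. Summed stellate and fibroblast markers lay at 116 to 195 CPM, mostly Sparc at 106 ± 19.4 CPM, and Col1a1 was at 1.32 ± 1.28 CPM. Schwann and neuronal markers summed to 106 to 160.4 CPM. Adipocyte markers summed to 6.26 to 14.9 CPM, with 5 of 7, Adipoq among them, listed at 0. Erythroid markers summed to 164 to 425 CPM.

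The acinar list was the largest of these and the most uneven. Its sum was 140224, 57659.8, 35309, 33939, 64332 and 52126 CPM outside insulin in replicates 1 to 6, so replicate 1 was 2.18 times the next highest library. Of 37 genes in the table, 27 were well counted and 26 of these were highest in replicate 1. Ctrb1 was at 21269.6, 8452, 5129.9, 4931, 8921 and 7364 CPM, the lipase Pnlip at 13755, 6494, 3873, 3737, 7446 and 5596 CPM, and the trypsinogen Prss2 at 12944, 5560.3, 3323, 3118, 5586 and 4954 CPM. Bhlha15, the acinar transcription factor Mist1, was the exception, at 26.1, 64.9, 70.3, 53.4, 37.6 and 62.6 CPM and lowest in replicate 1. The trypsinogens Try4, Try5 and 2210010C04Rik are near-identical relatives of Prss2, so reads may be split among them, and Prss1 and 4 amylase copies were listed at 0. Whether the amount of exocrine tissue moved other values of replicate 1 was not tested.

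The Y-linked Ddx3y was at 82.5, 137, 119.8, 119, 129.8 and 124 CPM outside insulin and Xist, made from an inactive X chromosome, at 12.6, 11.4, 16.8, 24, 13.7 and 13.7 CPM. Both were counted in all 6 libraries.

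Spread between libraries was modest for most genes. Over the 4860 well counted genes the median CV of CPM outside insulin was 13.2%, and Poisson counting alone would give a median of 9.997%. With counting error taken off, the median CV was 9.06%, and for 924 genes (19.01%) the CV was no larger than counting error. For the 171 genes with a mean of at least 1000 counts the median CV was 9.41%, where counting error gives 2.49%. A CV above 50% was found for 30 genes, of which 22 were on the acinar list, and without replicate 1 the number was 5.

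**Figure D5:**
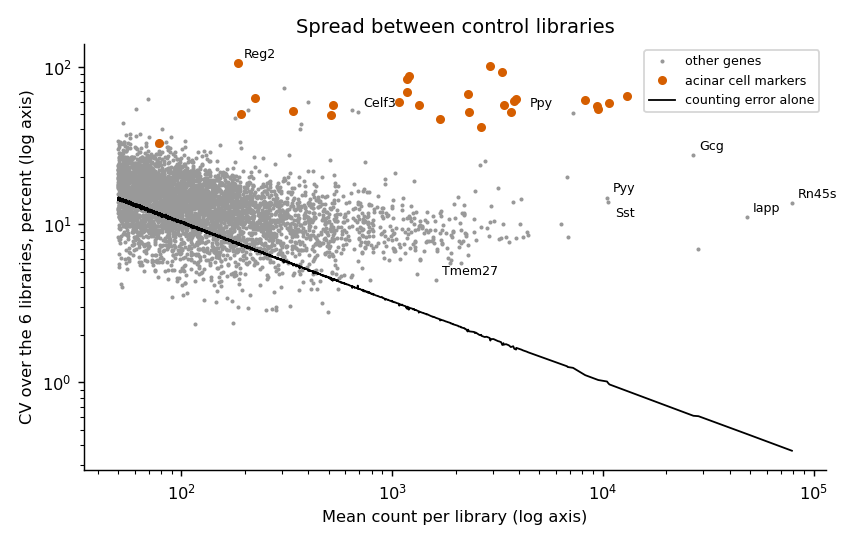
CV of CPM outside insulin over the 6 control libraries against the mean count, for the 4860 well counted genes, both on log axes. The line is the CV that counting error alone would give, and acinar markers are drawn larger. Most acinar markers lie above 50%, as do Ppy at 51% and Celf3 at 51.5%, while Tmem27 lies at 4.43%.

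The most variable genes were exocrine. The trypsinogens Try5 and Try4 had CVs of 101% and 91.9%, which became 32% and 26.6% without replicate 1. Reg2, of the regenerating family, was at 394, 193, 50.5, 54, 48.7 and 59.2 CPM outside insulin. Its CV was 105%, and 77.4% without replicate 1, so its spread did not rest on that library alone. Reg1, its relative, was at 2277, 801, 425, 387, 577 and 655 CPM. Of the 8 genes above 50% that are not on the acinar list, Spink3, Cuzd1, Dmbt1, Erp27, Klk1 and Pdia2 were highest in replicate 1. The other two were Ppy and Celf3. Celf3, an RNA-binding protein of neurons and endocrine cells, was at 348, 724, 211, 414, 222 and 685 CPM, high in replicates 2 and 6 and low in replicates 3 and 5.

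A spread above that of most genes was also seen outside the exocrine set. Chac1, a glutathione-degrading enzyme of the stress response, was at 25.3, 50.1, 54.5, 37.6, 18.8 and 36.4 CPM outside insulin, and Deptor, an inhibitor of mTOR, at 24.4, 85.4, 69.3, 53.4, 51.2 and 73.4 CPM. Cish, an inhibitor of cytokine and prolactin signalling, was at 42.1, 53, 67.3, 57.2, 99.1 and 31.9 CPM, highest in replicate 5. Their CVs were 37.1%, 36% and 40.04%, and 35.3%, 21.5% and 39.8% without replicate 1, in which Deptor was lowest. Rps15a, a ribosomal protein, was at 187, 171, 187, 422, 349 and 184 CPM, a CV of 43%, and its pseudogene Rps15a-ps6 at 440.2, 413, 418, 317, 243 and 367 CPM. Replicates 4 and 5 were high for the gene and low for the pseudogene, and the sum of both had a CV of 10.5%. Neither level should be read alone, since reads of near-identical copies can fall on either.

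The steadiest genes depended on the scaling. Among the 171 genes with a mean of at least 1000 counts, the 10 with the lowest CV outside insulin shared 1 gene with the 10 lowest after TMM scaling. Under all 5 scalings tried, 64 of the 171 stayed under a CV of 10% and 8 under 7%. The 8 included Mrfap1 (CV 5.66% outside insulin, 4.87% with TMM), Prss53 (5.69% and 5.11%), and Tmem27, a beta cell membrane protein also called collectrin (4.43% and 6.02%). Pam was also among them, at 4.85% and 6.92%. The 10 genes with the least spread relative to counting error, such as Myd88 and Ulk1, all had means of 50.5 to 56.5 counts, next to the minimum of 50, and CVs below counting error.

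A value of 0 in this table was not read as absence. The 7817 genes listed at 0 in all 6 libraries included Rpl26, Rpl30, Rpl34 and Rps27, which encode ribosomal proteins that every cell uses, and Ndufs5 of respiratory complex I. These stood beside genes such as Pax4, Cdk6 and Sstr5. Levels near 0 are therefore given as listed, with no statement about the cells.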

How the data were processed

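RNA-seq was analysed from 6 control islet libraries. The authors deposited raw read counts per gene, per the file headers. TopHat2, HTSeq, DESeq2 1.4.5 and the mm9 build are named in the submitters' processing notes with no role. The annotation, strand and read length are not given in the sources used here. Total RNA was extracted with Trizol and an RNA kit, per the labels' protocols. The table has 23366 rows, of which 27 have a date for a name (0.0447% of counts) and were left out. 18 other count columns were not used: those of the knockout libraries and the normalized ones.

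Counts were scaled to CPM over all genes except Ins1 and Ins2, and per kilobase of exon with lengths from GENCODE M21 (GRCm38), matched by symbol for 21713 genes and by synonym for 1272. The 354 genes without a length hold 5.62% of the counts outside insulin. Promoter sequences are from RefSeq, GRCm38.p6. A CV was computed for genes with a mean of at least 50 counts. Gene pairs were tested with a two-sided exact sign-flip permutation test over libraries on log2 ratios with a pseudocount of 0.5 counts, with Benjamini-Hochberg adjustment over 14 pairs and a threshold of 0.05. The members, gene lists and pairs were chosen with earlier results of these data known.

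Genes named are the 25 highest by reads and per kilobase, the 15 with the largest and 10 with the smallest CV beyond counting, the 8 highest of each list with its most variable member and its members at 0, and all pair genes. Named after their values were seen were Atf4, Bhlha15, Cat, Celf3, Chac1, Cish, Col1a1, Deptor, Erp27, Ffar1, Foxa1, Gad1, Gad2, Gapdh, Gcgr, Ghrl, Glis3, Hprt, Junb, Klk1, Krt19, Mnx1, Mrfap1, Npy, Oat, Pcna, Pdia2, Prss53, Ptprn, Ptprn2, Rps15a-ps6, Sox9 and Wfs1. Libraries compared pairwise differed by a chi-square per gene of at least 2.04 over 15 pairs, so none was counted as a copy. Alternatives were TMM factors (edgeR 4.0.16), size factors (DESeq2 1.42.0), other count minimums, other scalings and leaving out each library. The steps were tested on simulated data and run with Python 3.11.15, numpy 2.4.6, pandas 2.3.3, matplotlib 3.10.9 and R 4.3.3. Counting error and the floor of 3 counts cover counting error only. Some members of the lists and pairs are not reported here.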

Additional observations from a re-analysis of the deposited data

Results flagged for a closer look

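A library was taken as far from the others where its gap to the nearest one, divided by the range of the 6, was above 0.625. Chance flags about 1 in 20 groups. This was so for 4 of 31 list sums and for 23 of 141 named genes, 17 of them through replicate 1. Over all 4860 well counted genes it was so for 315 (6.48%), 171 of them (3.52%) through replicate 1. The named genes include genes picked for a large spread or after their values were seen. Their share therefore cannot be set against that of all genes or against chance.

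Replicate 1 was the high library for the summed acinar markers, at 140224 CPM outside insulin, and for the exocrine genes Ctrb1 (21269.6 CPM), Cela1 (16468), Pnlip (13755), Prss2 (12944), Try4 (6989), Try5 (6559), 2210010C04Rik (5929.7) and Reg1 (2277). It was also the high library for Klk1 at 944 CPM, Dmbt1 at 609, Spink3 at 544, Pdia2 at 295, Cuzd1 at 111 and Erp27 at 90.1.

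Replicate 1 was the low library for the summed endothelial markers at 548 CPM outside insulin, the exocytosis genes at 3219 and the cell cycle genes at 2305. After TMM scaling these 3 sums no longer stood apart, while the acinar sum did. The summed stellate and fibroblast markers came to stand apart after TMM scaling, highest in replicate 2 at 191 CPM. Replicate 1 was also low for Scg3 at 1262 CPM outside insulin, Adra2a at 144 and Ddx3y at 82.5. Outside insulin the CVs of these genes were 7.89%, 8.47% and 15.9%. With TMM factors they were 3.84%, 3.69% and 11.7%. Whether replicate 1 still stood apart for these genes with TMM factors was not tested.

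Other libraries stood apart for single genes. Pdia3 was high in replicate 3 at 2703 CPM outside insulin, and C1qa in replicate 4 at 152 CPM. Ldha was high in replicate 3 at 11.9 CPM, and Jun was low in replicate 3 at 17.8 CPM. Oat and Pcna were high in replicate 6 at 13.7 and 20.5 CPM. For 4 genes of 1 count in all, left out of the number above, 1 library must stand apart whatever the data: Foxa1 and Glis3 with 0.569 CPM in replicate 6, and Ffar1 and Mnx1 with 0.545 CPM in replicate 4.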

How the results depend on the processing

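No paired analysis was possible because no groups were compared. The levels of 285 named genes moved by less than their SD with TMM factors or DESeq2 size factors. The TMM factors ran from 0.888 to 1.04, and the DESeq2 factors were brought to the same total. Factors so near 1 can hardly move a mean by its SD, so this limit did not test the scaling. Of these genes, 21 moved by more when acinar counts were left out of the total, a scaling chosen after seeing the data. Without replicate 1 the levels also moved by less than their SD, but this could not have come out otherwise. Leaving out a single library cannot move a mean by the SD of all the libraries, whatever the values. How far the levels rest on replicate 1 was therefore not tested by this limit. Genes holding 50% of the counts numbered 2 over all counts and 94 per kilobase, and 388 to 434 when each library was left out in turn. The median CV was 10.3% for genes with a mean of at least 200 counts and 17.5% for at least 10, and 11.2% to 13.6% leaving out each library. Genes with a CV above 50% numbered 134 for a mean of at least 10 counts, and 5 to 33 leaving out each library, with 5 without replicate 1. Without length correction the log2 ratio of Gpd2 over Gpd1 was 1.34 (exact sign-flip permutation test, adjusted p = 0.03125). Leaving a library out gave the pairs as values with no test, since 5 libraries cannot give a p below 0.0625, and Gpd2 over Gpd1 was 0.15 to 0.30. Depth limits low genes: 3 counts are worth 1.63 to 2.97 CPM outside insulin.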
